A study of Mus musculus with 6 samples.

Results

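The genes described here encode interleukin-2 (IL-2), the 3 chains of its receptor, the kinases JAK1 and JAK3 and the transcription factors STAT5A and STAT5B, measured in Tregs from lung tumors of mice with or without Ku70 in Tregs. The members are Il2, Il2ra, Il2rb, Il2rg, Jak1, Jak3, Stat5a and Stat5b. They were chosen by name, and all 8 were found among the 15319 gene symbols of the count table. All 8 had at least 1 count, as did 15315 genes in all.

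IL-2 binds a receptor made of an alpha chain (CD25, encoded by Il2ra), a beta chain (CD122, Il2rb) and the common gamma chain (CD132, Il2rg). The alpha chain raises the affinity for IL-2 and sends no signal of its own, while the beta and gamma chains hold JAK1 and JAK3, which phosphorylate STAT5A and STAT5B. Tregs carry much CD25, make little IL-2 themselves and need IL-2 from other cells, and STAT5 is required for their Foxp3 expression and survival.

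The mice were C57BL/6J. WT mice were Foxp3Yfp-Cre animals and cKO mice were Xrcc6flox/floxFoxp3Yfp-Cre animals, so the Cre allele, which is driven by Foxp3 and acts in cells that have turned Foxp3 on, was carried by both groups. Xrcc6 encodes Ku70, a protein of DNA end joining. The mice were injected with LLC cells, a mouse lung carcinoma line, through the tail vein at 8 to 10 weeks of age, and Tregs were taken from the lung tumors 21 days later. RNA-Seq gave 3 libraries from WT mice and 3 from cKO mice. Whether a library held 1 animal or a pool is not given in the sources used here, so p-values measure the spread between these libraries. The gate for tumor Tregs is not given separately; Tregs from spleen and lymph nodes were sorted as CD4+CD25+YFP+ cells, a gate that uses the product of Il2ra.

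Total counts were 19032620 to 23159815 per library, and 3 counts, taken here as the one-sided limit that a count of 0 allows, were worth 0.133 to 0.156 CPM (counts per 1000000 of the library total, scaled by TMM). WT replicate 2 stood apart, with 11513 genes at 1 count or more against 14442 to 14737 in the other libraries, so each member is given with and without it. Values of single libraries stand in the order of replicates 1, 2 and 3. Xrcc6 was at 20.9, 63.1 and 23.8 CPM (WT) and 5.24, 3.51 and 4.18 CPM (cKO). The Treg genes Foxp3, Ikzf2, Ctla4 and Tnfrsf18 were detected in every library, Foxp3 at 150.4 to 282 CPM. Of the CD8 genes, Cd8a was at 2.60 CPM or less and Cd8b1 at 5.22 to 18.5 CPM, and Ncr1, an NK cell gene, was not among the genes with counts.

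No member passed the test of cKO against WT. In bulk RNA, fewer cells that express a gene and less RNA per cell cannot be told apart. At an adjusted p under 0.05 (edgeR's quasi-likelihood test, Benjamini-Hochberg over 15315 genes), 0 of the 8 members were called, where 0% of all genes were, and the adjusted p was 0.984 to 0.996 for all 8. Xrcc6, the gene targeted in cKO mice, was not called in this fit either (edgeR unadjusted p = 0.000306, adjusted p = 0.984). A high adjusted p here therefore does not show that a member was unchanged. At an unadjusted p under 0.05, 0 members passed, where 1.81% of all genes did. DESeq2 gave 0 members at either limit, beside 0.0131% of all genes past adjustment and 2% at the unadjusted limit. Unlike edgeR, DESeq2 did call Xrcc6 on the same libraries (DESeq2 adjusted p = 1.22e-05). limma's voomWithQualityWeights called 0 members after adjustment, beside 0% of all genes, and 0 at an unadjusted p under 0.05, beside 3.55%. Without WT replicate 2 edgeR called 0 members at an adjusted p under 0.05, beside 0.00654% of all genes, and 0 at an unadjusted p under 0.05, beside 3.01%. DESeq2 without that library called 0 members after adjustment, beside 0.0196% of all genes. The CPM ranges of the groups overlapped for all 8 members, while they did not overlap for 8.24% of all genes. The exact two-sided permutation test on a member's CPM gave p = 0.3 or more, and the smallest p this design allows is 0.1.

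**Figure D1:**
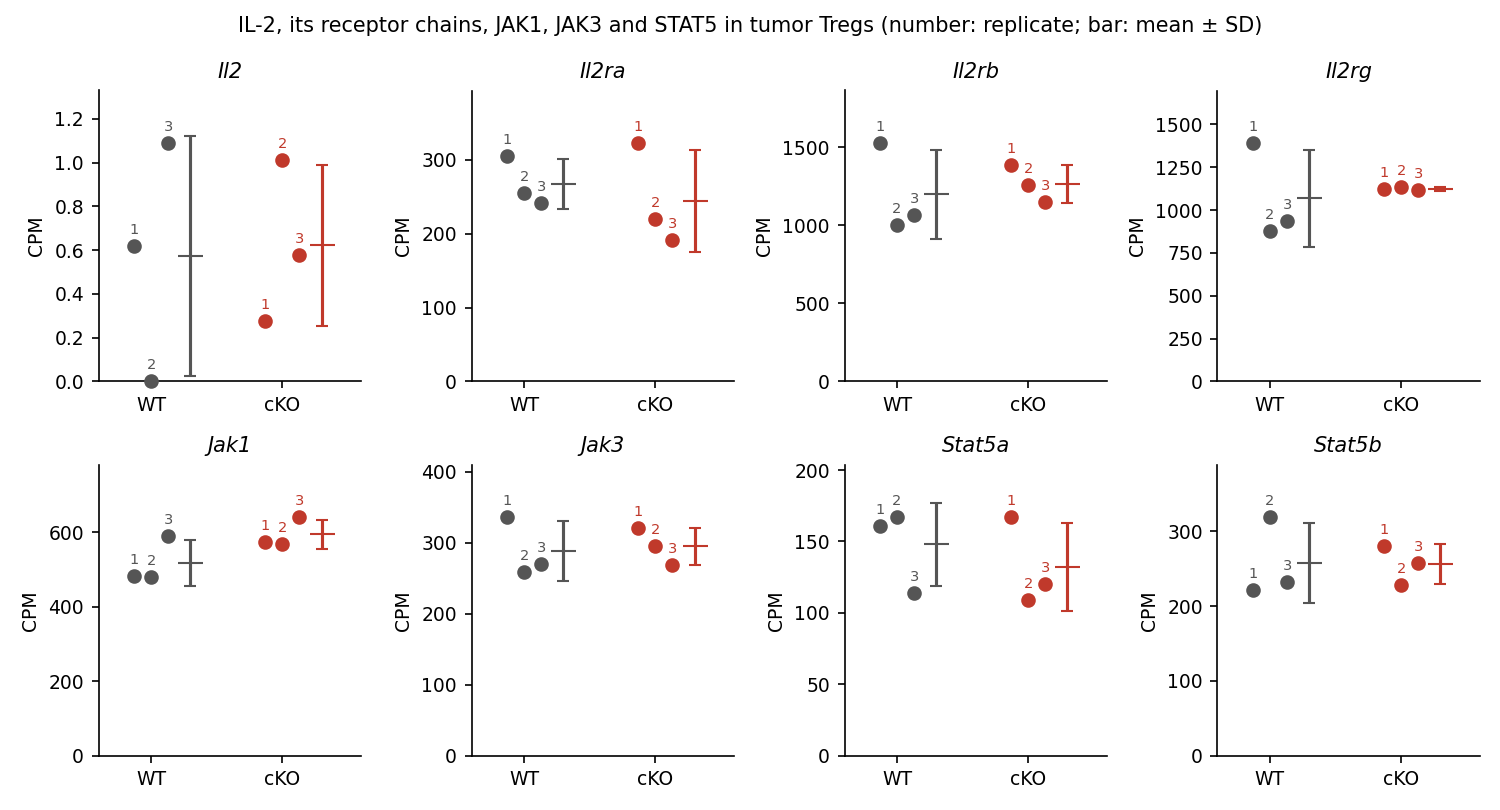
CPM (vertical axis, from 0) of the 8 members in each library, WT in grey and cKO in red, with the replicate number above each point and the mean ± SD at the right of each group. The WT and cKO points overlap in every panel, and Il2 lies at 1.09 CPM or less.

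Il2 encodes the ligand and occupies chromosome 3 (GRCm38) from 37120523 to 37125959, where it overlaps Adad1 on the other strand. Il2 had 13, 0 and 21 counts (WT) and 6, 21 and 13 counts (cKO). These counts correspond to 0.621, 0 and 1.09 CPM (WT) and 0.278, 1.01 and 0.578 CPM (cKO). The highest library was WT replicate 3 and the lowest WT replicate 2, so the WT group spanned the whole range of the cKO group. Il2 stood at the 21.1 percentile of all genes with counts, at a depth where counting error alone is wide. The exact 95% Poisson interval of the 6 counts in cKO replicate 1 was 2.20 to 13.1 counts, and that of the 21 counts in cKO replicate 2 was 13.0 to 32.1.

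The mean of Il2 was 0.572 ± 0.549 CPM in the WT group against 0.622 ± 0.367 CPM for cKO (SD, n = 3 each). For Il2 the log2 fold change, cKO over WT, came to 0.12 (standard error 1.32, edgeR adjusted p = 0.996), with a 95% interval of -2.95 to 3.20. The interval covers folds from 0.129 to 9.17, so neither a large fall nor a large rise of Il2 could be told from no change at this depth. Without WT replicate 2, the library with 0 counts, the log2 fold change was -0.46 with an interval of -1.96 to 1.05. The sources used here do not say if counting was by strand. Of the 100-base windows of Il2 transcripts, 8.42% were also found in Ntan1, on either strand, and none in Adad1.

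Il2ra encodes CD25 and lies on chromosome 2 from 11642807 to 11693193, with Gm37881 annotated on the same strand. It was at 306, 255 and 242 CPM (WT) and 323, 219.6 and 191 CPM (cKO). The cKO group held the highest library and also the lowest 2 libraries, and its SD of 69.3 CPM around a mean of 244 CPM compared with 33.9 CPM around 267 CPM in the WT group (n = 3 each). Its log2 fold change was -0.13 (edgeR adjusted p = 0.984, standard error 0.23), with a 95% interval of -0.66 to 0.40, or folds of 0.635 to 1.32. It was -0.17 without WT replicate 2. With cKO replicate 1 left out it was -0.38 (unadjusted p = 0.0935 and adjusted p = 0.996 from edgeR), the lowest of the 6 fits that left out a library, and without cKO replicate 3 it was 0.02.

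Il2rb encodes the beta chain, which Tregs share with memory CD8 T cells and NK cells and which also serves IL-15. It lies on chromosome 15 from 78479256 to 78495271. Its level was 1528, 1004 and 1069 CPM (WT) and 1387, 1259 and 1150 CPM (cKO). All cKO libraries lay between the highest and the lower WT libraries. The log2 fold change was 0.08 ± 0.23 (standard error), and the 95% interval ran from -0.47 to 0.62. It was -0.04 without WT replicate 2. Il2rb stood at the 99.3 percentile of all genes.

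Il2rg, on chromosome X from 101264378 to 101268255, encodes the common gamma chain, which the receptors for IL-4, IL-7, IL-9, IL-15 and IL-21 also use. It was at 1392, 876 and 935 CPM (WT) and 1124, 1136 and 1115 CPM (cKO). The cKO libraries had an SD of 10.8 CPM, against 283 CPM in the WT group, and all sat inside the WT range. Its log2 fold change was 0.08 ± 0.23 (standard error), and the 95% interval ran from -0.47 to 0.62. It was -0.05 without WT replicate 2. Leaving out WT replicate 1, the highest library of both Il2rb and Il2rg, gave 0.29 for Il2rb and 0.31 for Il2rg, the highest values of the fits that left out a library. Il2rg overlaps Gm20489, an annotated gene on the same strand, which shares 24.5% of its 100-base windows, while its deposited counts were whole in every library.

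The ratios between the receptor chains differed in how far they varied between libraries. Per kb of the longest coding transcript, Il2rb was 0.411 to 0.491 times Il2rg in all 6 libraries, with means of 0.449 ± 0.0107 in the WT group and 0.448 ± 0.0404 in the cKO group (SD, n = 3). On the same scale Il2rb was 5.26, 4.14 and 4.65 times Il2ra (WT) and 4.52, 6.03 and 6.33 times (cKO). The highest ratios were those of cKO replicates 2 and 3, and cKO replicate 1 lay among the WT libraries. The means of this ratio, 4.68 ± 0.561 and 5.63 ± 0.970 (SD, n = 3), did not differ beyond the spread between libraries (exact two-sided permutation test, p = 0.3).

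Jak1 encodes the kinase held by the beta chain and lies on chromosome 4 from 101152367 to 101265282. It was at 483, 481 and 590.3 CPM (WT) and 574, 570.3 and 641 CPM (cKO). WT replicates 1 and 2 were below every cKO library, and WT replicate 3 was above cKO replicates 1 and 2. The means were 518 ± 62.5 CPM in the WT group against 595 ± 39.7 CPM for cKO (SD, n = 3). The log2 fold change of 0.20 (standard error 0.17, edgeR unadjusted p = 0.275 and adjusted p = 0.984) did not exceed the spread between libraries. It was the largest in size among the members in the edgeR fit with all 6 libraries, TMM scaling and no block. Without WT replicate 2, Il2, Il2ra and Stat5b had larger values in size, and with library size only (0.14 for Jak1) Il2ra and Stat5a did. With the replicate number as a block Il2 did (0.44), and with voomWithQualityWeights (0.14 for Jak1) Il2 (-0.33) and Il2ra (-0.24) did. For Jak1 the 95% interval was -0.20 to 0.60, and the value without WT replicate 2 was 0.15. Jak1 was positive in each of the 6 fits that left out a library, from 0.14 to 0.31.

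Jak3, the kinase held by the common gamma chain, lies on chromosome 8 from 71676296 to 71690575. It was at 336, 259 and 269.7 CPM (WT) and 321, 296 and 269 CPM (cKO). Of the members it had the smallest ratio of its highest to its lowest library. Its log2 fold change was 0.04 ± 0.17 (standard error), and the 95% interval ran from -0.35 to 0.42. It was -0.04 without WT replicate 2. Jak3 overlaps Insl3 on the same strand and shared 5.51% of its 100-base windows with it. Jak1 overlaps Raver2 on the other strand and shared 0% of its windows with any gene. The deposited counts of both kinases were not whole in any library.

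Stat5a and Stat5b encode close paralogs that IL-2 activates together. They lie on chromosome 11, Stat5a from 100859351 to 100885169 on the plus strand and Stat5b from 100780731 to 100850724 on the minus strand, 8627 bases apart. The paralogs share enough sequence that their reads must in part be divided by an estimate. In GENCODE vM21 the coding sequences of Stat5a-203 and Stat5b-202 were aligned over 2291 bases and were identical at 90.8% of them. The longest identical run was 324 bases, longer than a read of 150 bases, so a single read that falls inside it does not tell the genes apart. Its start is printed from the Stat5a transcript with the 20 bases before it, bases 551 to 850 of the coding sequence, where the capital marks the base that differs from Stat5b.
Stat5a: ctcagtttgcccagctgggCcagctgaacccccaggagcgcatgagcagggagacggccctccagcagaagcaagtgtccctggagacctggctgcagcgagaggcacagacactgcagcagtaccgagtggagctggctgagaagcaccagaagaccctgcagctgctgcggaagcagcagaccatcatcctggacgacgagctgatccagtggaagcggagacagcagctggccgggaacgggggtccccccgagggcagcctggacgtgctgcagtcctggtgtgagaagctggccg

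The ungapped stretch of 120 bases with the most differences, bases 45 to 164 of both coding sequences, holds 33 of them. It is shown because a read from it can be told to belong to Stat5a or Stat5b. Capitals again mark the differing bases.
Stat5a: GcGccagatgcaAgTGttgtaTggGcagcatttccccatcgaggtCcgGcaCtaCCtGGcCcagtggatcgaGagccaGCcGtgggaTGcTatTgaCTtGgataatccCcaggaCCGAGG
Stat5b: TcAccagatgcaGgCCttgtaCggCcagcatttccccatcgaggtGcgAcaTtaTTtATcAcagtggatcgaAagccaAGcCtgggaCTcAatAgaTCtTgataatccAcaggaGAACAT

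Over all annotated transcripts, 265 windows of 100 bases were found in both genes, 3.44% of those of Stat5a and 4.79% of those of Stat5b. The deposited counts of both genes were not whole in any of the 6 libraries. Stat5a also overlaps Stat3 on the other strand.

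Stat5a was at 161, 167 and 114 CPM (WT) and 167, 109 and 120.0 CPM (cKO). WT replicates 1 and 2 and cKO replicate 1 were high and the other 3 libraries low, so the split ran through both groups. The log2 fold change was -0.16 (edgeR adjusted p = 0.984, standard error 0.22), with a 95% interval of -0.68 to 0.36, and -0.06 without WT replicate 2. Leaving out cKO replicate 1 gave -0.36 (edgeR unadjusted p = 0.147).

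Stat5b was at 222, 319 and 232 CPM (WT) and 281, 228 and 258 CPM (cKO). WT replicate 2 was the highest library and WT replicate 1 the lowest. Its log2 fold change was -0.01 ± 0.19 (standard error), and the 95% interval ran from -0.45 to 0.43. Leaving out WT replicate 2 gave 0.17 (95% interval -0.17 to 0.51). When the counts of the paralogs were summed into 1 gene, which removes the division of shared reads between them, the log2 fold change was -0.06 (standard error 0.20, edgeR adjusted p = 0.984), and 0.09 without WT replicate 2. Stat5a made up 42.0%, 34.4% and 32.9% of the summed counts in WT libraries and 37.2%, 32.4% and 31.7% in cKO libraries. The Wilson 95% interval of the share was 41.0% to 43.1% in WT replicate 1 and 30.8% to 32.7% in cKO replicate 3, and covers counting error only. The share was highest in replicate 1 of each group, and its means of 36.4% ± 4.88 and 33.8% ± 2.99 (SD, n = 3) did not differ beyond the spread (exact two-sided permutation test, p = 0.5).

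**Figure D2:**
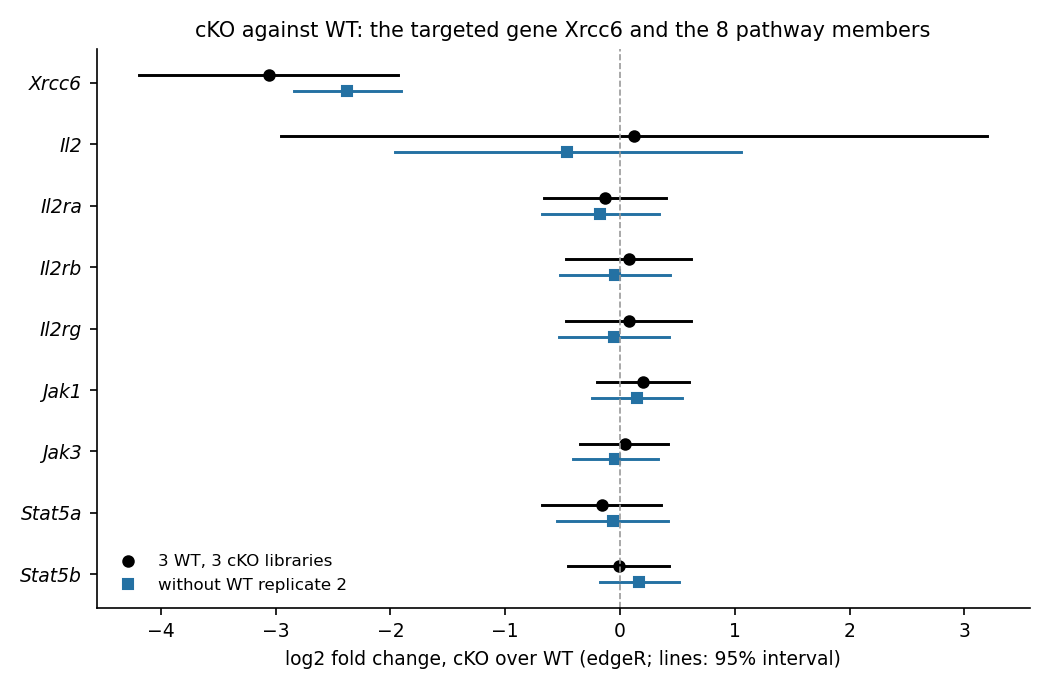
Log2 fold change of cKO over WT (horizontal axis) from edgeR for Xrcc6 and the 8 members, with 95% intervals as lines. Black circles are fits of all 6 libraries and blue squares those without WT replicate 2. Both intervals of Xrcc6 lie below 0, while both intervals of every member include 0, and that of Il2 runs from -2.95 to 3.20.

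For the 7 members other than Il2, the 95% intervals from all 6 libraries lay between -0.68 and 0.62 on the log2 scale. The median log2 fold change of the 8 members was 0.06, and 0.04 over all genes tested. Their median size without regard to sign was 0.10, against 0.28 over all genes and 0.15 over the 1887 genes with a mean of at least 100 CPM. Without WT replicate 2 these values were 0.11, 0.17 and 0.10. For the 7 members other than Il2, whose means were all above 100 CPM, the median size was 0.08, and 0.06 without WT replicate 2. For Xrcc6 the log2 fold change was -3.06 (standard error 0.48), and -2.38 without WT replicate 2, where it was the only gene of the table to pass adjustment (edgeR adjusted p = 0.0196).

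Per length, the receptor chains that signal were the most abundant members and the ligand the least. The CPM per kb of the longest coding transcript averaged 656 over the 6 libraries for Il2rg, 294 for Il2rb, 113 for Jak1, 72.6 for Jak3, 58.0 for Il2ra, 49.3 for Stat5b, 36.0 for Stat5a and 0.522 for Il2. The libraries of Il2rg (524 to 834), Il2rb (239 to 364), Jak1 (98.1 to 131) and Jak3 (64.3 to 83.7) did not overlap each other. Those of Il2ra (43.3 to 73.2) overlapped both Jak3 and Stat5b (42.7 to 61.2), and Stat5b overlapped Stat5a (28.1 to 43.0). With merged exons as the length, Stat5b at 46.4 and Il2ra at 44.8 CPM per kb changed places and the other members kept their order. These are levels of mRNA, not of protein on the cell surface.

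**Figure D3:**
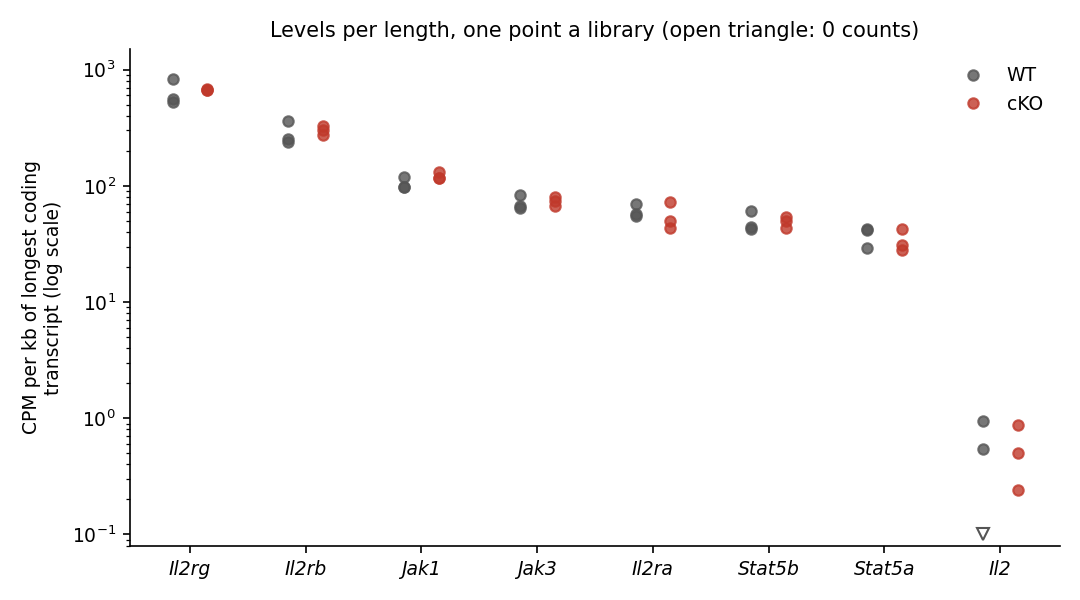
CPM per kb of the longest coding transcript (log axis) of each member, 1 point per library, WT in grey and cKO in red, in order of the mean. Il2rg and Il2rb lie above the other genes in every library, and Il2 lies under 1 CPM per kb with the WT library at 0 counts drawn as an open triangle.

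Sums of some markers of other cells were lowest in the libraries with the most Il2ra. The 6 markers of macrophages, monocytes and dendritic cells (Csf1r, Adgre1, Lyz2, Cd68, Itgax and Flt3) all had counts and summed to 151, 609.9 and 583 CPM (WT) and 198, 406 and 784 CPM (cKO). The sum was lowest in WT replicate 1 and cKO replicate 1, the libraries with the most Il2ra, and highest in cKO replicate 3, which had the least. The order was not kept throughout, since cKO replicate 2 had less Il2ra than WT replicates 2 and 3 and also a lower sum. Lyz2 made most of it, at 129 to 625 CPM, and the dendritic cell gene Flt3 was at 0.417 CPM or less. Itgax did not follow the sum, at 0.43, 0 and 1.25 CPM (WT) and 1.67, 2.21 and 1.73 CPM (cKO). The 4 B cell markers summed to 1.10, 23.1 and 6.67 CPM (WT) and 0.974, 14.6 and 22.8 CPM (cKO), again lowest in replicate 1 of each group. The 5 markers of lung epithelium and tumor summed to 34.7, 50.3 and 99.0 CPM (WT) and 36.5, 67.9 and 55.4 CPM (cKO), most of the spread being in Scgb1a1. Epcam (17.2 and 14.8 CPM) and Sftpc (10.7 and 9.42 CPM) went the other way, being highest in WT replicate 1 and cKO replicate 1. Krt8 and Krt18 were at 2.45 CPM or less. The 5 markers of endothelium and stroma, mainly Pecam1, summed to 61.5, 79.8 and 82.0 CPM (WT) and 72.9, 70.4 and 96.1 CPM (cKO). The sum of CD8 T and NK cell markers was instead highest in WT replicate 1 and cKO replicate 1, at 21.9 CPM in each. The part of these cells in the spread of Il2ra was not tested.

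**Figure D4:**
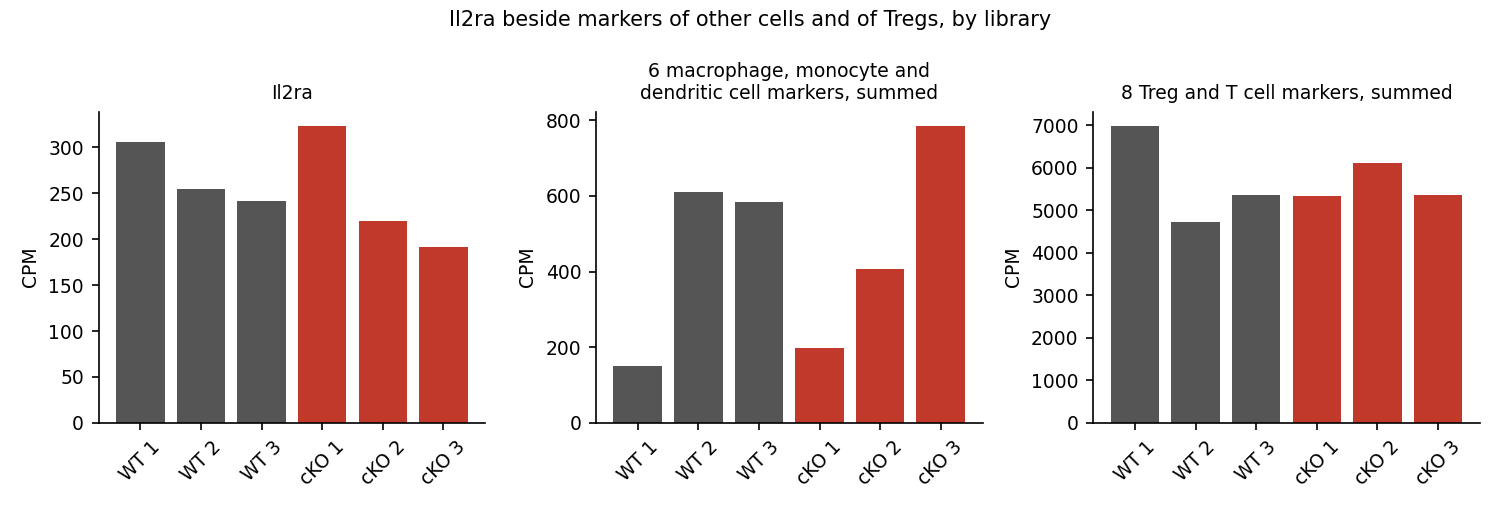
CPM of Il2ra, of 6 summed markers of macrophages, monocytes and dendritic cells, and of 8 summed Treg and T cell markers, by library (bars from 0, WT in grey and cKO in red). Il2ra is highest and the macrophage sum lowest in WT replicate 1 and cKO replicate 1. The Treg and T cell sum is highest in WT replicate 1, while cKO replicate 1 (5336 CPM) is the lowest cKO library, beside 5350 CPM in cKO replicate 3.

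The summed Treg and T cell markers (Foxp3, Ikzf2, Ctla4, Tnfrsf18, Cd3e, Cd3d, Cd3g and Cd4) ranged from 4711 to 6973 CPM in WT and 5336 to 6121 CPM in cKO libraries. WT replicate 1 was the highest and WT replicate 2 the lowest, as for Il2rb, Il2rg and Jak3. The 5 measured CD8 T and NK cell markers, from cells that also use Il2rb, summed to 5.26 to 21.9 CPM in WT and 19.8 to 21.9 CPM in cKO libraries. Cd8b1 made most of this sum, at 18.5, 5.22 and 12.5 CPM (WT) and 17.3, 17.6 and 17.9 CPM (cKO), while Klrd1, Klrb1c and Eomes were each at 1.42 CPM or less. The 5 neutrophil markers summed to 8.03 to 16.6 CPM in WT and 11.6 to 13.8 CPM in cKO libraries, and their genes did not go 1 way. S100a9 was at 0.0956, 0 and 0.208 CPM (WT) and 1.11, 1.35 and 1.91 CPM (cKO). Retnlg was at 0 in all WT libraries and at 0.882, 0.625 and 1.51 CPM (cKO). The groups did not overlap for either, and they did not for 8.24% of all genes. Both genes were scarce, where 3 counts were worth 0.133 to 0.156 CPM. Cxcr2 was at 7.55, 9.54 and 10.4 CPM (WT) and 7.84, 5.72 and 4.80 CPM (cKO), S100a8 at 0.335 to 7.05 CPM in WT and 3.80 to 5.43 CPM in cKO libraries, and Ly6g at 0.133 CPM or less. The part of these cells in the values of the members was not tested.

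Among members, Il2rb and Jak3 varied most alike over the 6 libraries, with a Pearson r of log2(CPM + 0.5) of 0.98, and Il2rb and Il2rg had 0.93. Il2ra had 0.78 with Stat5a and -0.58 with Jak1. Among the 8440 other genes with a mean of at least 10 CPM, the genes most like Il2ra were Tfdp1 (r = 0.998), a partner of E2F transcription factors, Slc25a38 (r = 0.975), a mitochondrial carrier, and Lztr1 (r = 0.969). These correlations describe 6 libraries that differ in depth and in the marker sums above, and were not tested.

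Other genes of the pathway were taken from 6 lists of receptors, kinases, targets and regulators. Of 95 listed genes, 94 had counts, and 0 passed an adjusted p of 0.05 from edgeR. At an unadjusted p under 0.05, 0 were higher and 1 was lower in the cKO group, or 1.06% of them, beside 1.81% of all genes. Their median log2 fold change was -0.02, with 37 higher and 57 lower, and the groups did not overlap for 8.51% of them, beside 8.24% of all genes. Without WT replicate 2, 0 passed adjustment, and 1 was higher and 5 lower at an unadjusted p under 0.05, 6.38% beside 3.01% of all genes. The higher gene was Il4ra, and the lower ones were Il4, Il15, Lta, Ptpn11 and Nfkb1, which were picked out after their values were seen. Il4 and Il15 were scarce, at 2.82 CPM or less in every library.

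**Figure D5:**
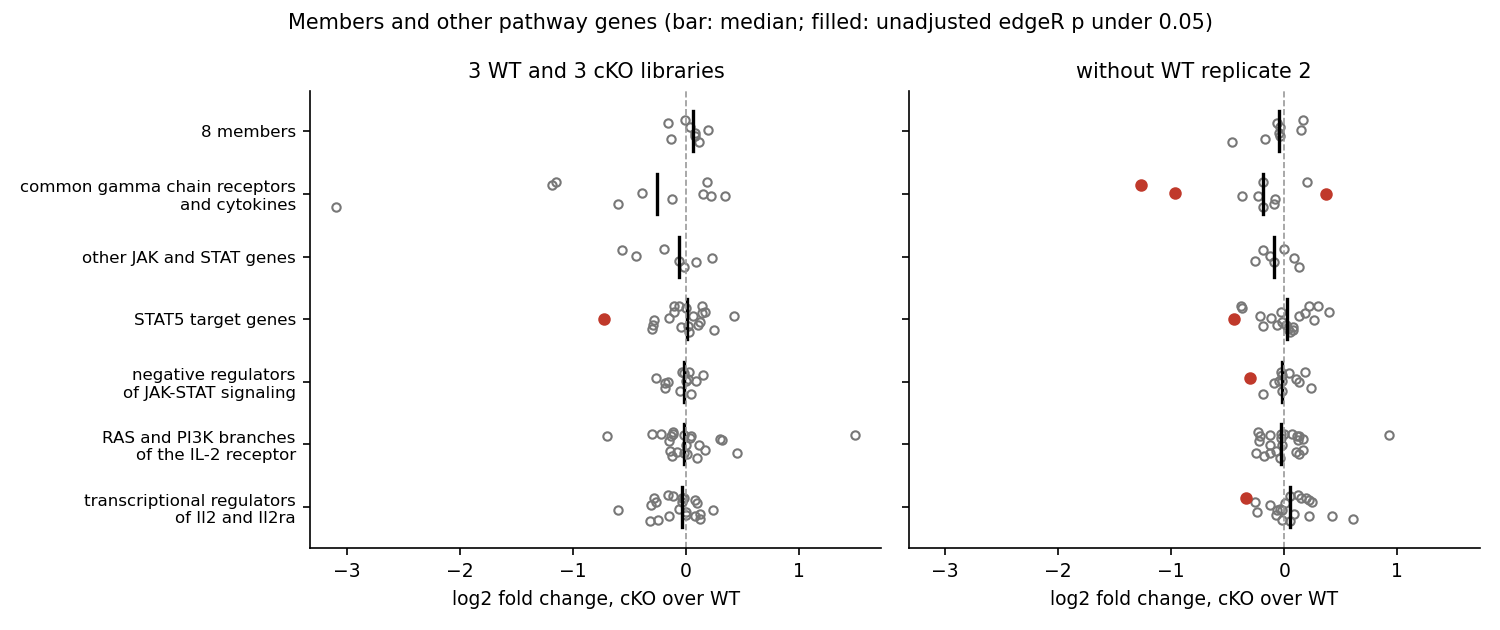
Log2 fold change of cKO over WT (horizontal axis) from edgeR for the 8 members and the genes of 6 pathway lists, for all 6 libraries (left) and without WT replicate 2 (right), 1 point per gene and a bar at the median. Filled points have an unadjusted p under 0.05, which are 1 gene on the left and 6 on the right, none of them a member.

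No gene of the receptors that share the common gamma chain passed adjustment. Of 10 listed receptors and cytokines with counts, 4 had higher and 6 lower values in cKO Tregs, and the median log2 fold change was -0.25 (-0.19 without WT replicate 2). Il21r (-0.12), Il4ra (0.15), Il7r (0.19) and Il9r (-0.60) were the most abundant. Il4ra, the alpha chain of the IL-4 receptor, was at 304, 469 and 331 CPM (WT), with a mean of 409 ± 14.8 CPM (SD, n = 3) in cKO libraries. WT replicate 2 was the highest library and the other WT libraries the lowest 2, so the groups overlapped with it and not without it, where the log2 fold change was 0.37 (edgeR unadjusted p = 0.0367 and adjusted p = 0.997).

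The other JAK and STAT genes had a median log2 fold change of -0.06, with 0 of 7 at an unadjusted p under 0.05 from edgeR with or without WT replicate 2. Jak2, a kinase of other cytokine receptors, was at 335, 656 and 366 CPM (WT) and 329.9, 295 and 297 CPM (cKO). The cKO libraries all lay under the lowest WT library, and WT replicate 2 was far above the rest. Its log2 fold change was -0.56 (standard error 0.27, edgeR unadjusted p = 0.0757 and adjusted p = 0.984), and -0.19 without WT replicate 2. Stat3 and Stat6 had values of 0.09 and -0.02.

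Genes that STAT5 is known to induce give a further reading of the pathway. All 20 listed targets had counts. In cKO libraries 10 had higher values and 10 lower, at a median log2 fold change of 0.01 (0.02 without WT replicate 2). Promoters of these targets in RefSeq (GRCm38.p6, 250 bases before to 50 after a start site) were searched for TTCNNNGAA, the palindrome that STAT5 dimers bind, which reads the same on both strands. It was found in 6 of 22 target promoters (27.3%), in 2726 of 32851 promoters in all (8.30%) and in 0 of the 9 promoters of the 7 members that matched. The 22 promoters belong to the 16 of 20 targets that matched. The match is a description of letters, and a site outside this window is not covered. The windows of 29 bases in targets described here are shown with the motif in capitals, 5′ to 3′ on the strand of the gene, for Cish (plus strand, chr9:107296649-107296677 and chr9:107296660-107296688), Tnfrsf9 (plus strand, chr4:150927853-150927881), Lta (minus strand, chr17:35205485-35205513 and chr17:35205349-35205377) and Foxp3 (plus strand, chrX:7580334-7580362).
Cish: ccgcccagttTTCCTGGAAagttcttgga
Cish: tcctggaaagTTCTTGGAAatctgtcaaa
Tnfrsf9: caacagctgaTTCCAAGAAacccttcaga
Lta: accatcactcTTCAGGGAAccaggcttcc
Lta: ccgactccctTTCCCAGAAcgcagtagtc
Foxp3: gagctctgttTTCCAAGAAcgggcattag

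Cish, an early STAT5 target whose product inhibits cytokine receptors and which holds 2 of these motifs, was at 584, 429 and 636 CPM (WT) and 624, 626 and 558 CPM (cKO). The groups overlapped, with WT replicate 2 the lowest library. Its log2 fold change was 0.13 (standard error 0.20, edgeR adjusted p = 0.984), and -0.02 without WT replicate 2. Pim1, a survival kinase, and Mcl1, an inhibitor of apoptosis, had values of -0.29 and 0.14 (standard errors 0.24 and 0.18), and -0.06 and 0.18 without WT replicate 2. Tnfrsf9, a costimulatory receptor, ranged from 361 to 1568 CPM within the WT group alone and had a value of -0.00 on the log2 scale (standard error 0.50). Foxp3, the lineage factor of Tregs and named here after its value was seen, had one of 0.25 (standard error 0.23), and 0.08 without WT replicate 2.

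Lta, which encodes lymphotoxin alpha, was the only gene of the lists at an unadjusted p under 0.05 with all 6 libraries. It was at 40.2, 69.4 and 43.8 CPM (WT) and 34.4, 31.0 and 27.8 CPM (cKO). The cKO libraries all lay under the lowest WT library, and WT replicate 2 was the highest. The log2 fold change was -0.72 (standard error 0.24, edgeR unadjusted p = 0.0183 and adjusted p = 0.984), which did not pass adjustment. Leaving out WT replicate 2 gave -0.44 (edgeR unadjusted p = 0.0119, adjusted p = 0.997).

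Inhibitors and side branches of the receptor had medians close to 0. The 13 genes listed as negative regulators of JAK-STAT signaling had a median log2 fold change of -0.02. With all 6 libraries 0 had an unadjusted p under 0.05 from edgeR, and without WT replicate 2 Ptpn11 did (edgeR unadjusted p = 0.0432, adjusted p = 0.997). Ptpn1, a phosphatase that removes phosphate from some JAKs, was at 182 to 188 CPM in WT and 177 to 194 CPM in cKO libraries. Ptprc and Cblb had values of -0.03 and -0.05. The 23 genes of the RAS and PI3K branches had a median of -0.02, and Lck, Grb2 and Pik3cd, among the most abundant of them, had values of -0.12, 0.05 and -0.08. Of 21 transcriptional regulators of Il2 and Il2ra the median was -0.03 and 0 had an unadjusted p under 0.05 with all 6 libraries. Without WT replicate 2, Nfkb1 did (edgeR unadjusted p = 0.0443, adjusted p = 0.997). Junb, Ets1, Jun and Fos had values of -0.32, -0.02, 0.08 and -0.03, and all 4 were highest in WT replicate 2 and lowest in WT replicate 1. Without WT replicate 2 their values were 0.05, 0.15, 0.42 and 0.25.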

How the data were processed

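Tumor-infiltrating Tregs gave 3 WT and 3 cKO libraries. The authors aligned 150-base paired-end reads to GRCm38 and deposited expected counts per gene symbol, not normalized. The submitters' processing notes name Bowtie2 (2.3.4.3) and RSEM (1.3.1), and the annotation is not given in the sources used here. Of the deposited values, 21.6% were not whole, and they were rounded. Replicates differed by more than sampling noise. Genes with at least 1 count (15315 of 15319) were scaled by TMM and tested with edgeR's quasi-likelihood test (edgeR 4.0.16, limma 3.58.1, R 4.3.3) of cKO against WT, with Benjamini-Hochberg adjustment. Standard errors and 95% intervals came from the log2 fold change and F statistic. The same functions were tested on simulated data. Positions and lengths are from GENCODE vM21 (GRCm38).

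The members and lists were chosen with earlier results of these data known. Named genes were the members, Xrcc6, the 4 most abundant genes of each list and any with an unadjusted p under 0.05, and the 3 genes most like Il2ra. Some genes of this rule are not reported here. Alternatives were DESeq2 (1.42.0), other scalings, filterByExpr (minimum count 10), voomWithQualityWeights, the replicate number as a block, summed paralogs and each library left out.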

Additional observations from a re-analysis of the deposited data

How the results depend on the processing

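No setting gave a member an adjusted p under 0.05 (lowest 0.677) or an unadjusted p under 0.05 (lowest 0.0935), and of 106 log2 fold changes of a member under another setting 85 kept their sign. Those that turned were small or had wide errors. Library size only gave -0.02 for Jak3. voomWithQualityWeights gave -0.33 for Il2, -0.01 for Jak3 and 0.12 for Stat5b. DESeq2 without WT replicate 2 gave -0.46 for Il2, -0.04 for Il2rb, -0.05 for Il2rg, -0.04 for Jak3 and 0.17 for Stat5b. With each library left out in turn, edgeR gave -0.46 to 1.00 for Il2, -0.38 to 0.02 for Il2ra, -0.04 to 0.29 for Il2rb, -0.05 to 0.31 for Il2rg, 0.14 to 0.31 for Jak1, -0.04 to 0.16 for Jak3, -0.36 to -0.04 for Stat5a and -0.11 to 0.17 for Stat5b.

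Genes past an adjusted p of 0.05 numbered 0 with edgeR, 2 with DESeq2, 3 with DESeq2 without WT replicate 2, and 0 to 1 with each library left out, the 1 being without WT replicate 2. Genes with an unadjusted p under 0.05 numbered 277, and 140 with filterByExpr, 543 with voomWithQualityWeights and 65 to 874 with each library left out: 874, 461 and 575 without WT replicate 1, 2 or 3 and 184, 72 and 65 without cKO replicate 1, 2 or 3. The pathway lists had 1 such gene, 3 with DESeq2, 5 with voomWithQualityWeights, 6 with DESeq2 without WT replicate 2, and 0 to 10 with each library left out, namely 10, 6 and 3 without WT replicate 1, 2 or 3 and 2, 0 and 0 without cKO replicate 1, 2 or 3. The cause was not tested. The CPM of 15 of 16 group means moved by less than 1 SD with library size only, and Il2rg in the cKO group was then at 1102 CPM. Depth limits Il2, at 21 counts or fewer in every library.

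Deviations from the group means correlated at -0.012, -0.214 and 0.199 between same-numbered libraries over 8447 genes. Between differently numbered libraries they correlated at -0.308 to 0.307, so these values cannot tell whether the replicate numbers pair the libraries. With the replicate number as a block, the log2 fold change of Stat5b was 0.00, 85 genes had an unadjusted p under 0.05 and 0 members did.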
